A study of Mus musculus with 8 samples.

Results

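The variable (V) segments of the T cell receptor alpha and beta chains were described in naive CD4+ T cells and in resting B cells. Members were all genes of the GENCODE M21 annotation of mm10 whose symbol starts with Trav (alpha chain) or Trbv (beta chain), 163 of 53843 annotated genes on the autosomes and X. There were 128 Trav segments on chromosome 14, of which the annotation lists 20 as pseudogenes, and 35 Trbv segments on chromosome 6, of which 13 are pseudogenes. Each segment was read over its gene body with 500 bases on either side, and 73 Trav and 30 Trbv segments had at least 3 CpGs listed in every library. Of these, 100 also held at least 20 reads in every library and were tested, 71 Trav and 29 Trbv.

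The study profiled CpG methylation by whole-genome oxidative bisulfite sequencing, in which oxidation before bisulfite is meant to leave only 5-methylcytosine (5mC) read as C. Cells came from spleens of C57BL/6J mice aged 6 to 8 weeks. Both cell types were taken from females and from males, which made 4 groups, each with 2 samples that name 1 file, so the design gave 4 libraries with 1 value per group and no spread within a group. The file named for each group carries the number of 1 of its 2 samples, and whether it joins both or holds that sample alone was not settled. Where 4 values stand in a row, the order is B then T of females, followed by B then T of males. Each sample pooled cells of several mice. T cells were naive, CD4+, CD62L high, CD44 low and CD25-, after depletion of cells carrying CD8a, B220 or the gamma/delta receptor, and B cells were resting and CD43-. The labels name no targeted allele and no agent.

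V segments are the pieces of DNA from which the antigen-binding end of a receptor chain is built. In the thymus, the RAG recombinase joins 1 V segment to a joining (J) segment in the alpha locus, or to a diversity (D) and a J segment in the beta locus, at recombination signals made of a heptamer, a spacer and a nonamer. For segments in the same orientation as the J segments, the DNA between the joined ends is removed from the chromosome, whereas a segment in the opposite orientation is joined by inversion. B cells rearrange immunoglobulin loci instead, so the B libraries served as the comparison. V segments closest to the J segments were called proximal, and distance was counted from the first base of Traj61 for Trav and from the first base of Trbd1 for Trbv, together called the J end.

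The letters after each segment were read from the mm10 reference (RefSeq, GRCm38.p6) to check the labels against sequence. The heptamer searched was CACAGTG, directly after the segment on its own strand, followed by 23 spacer bases and the nonamer ACAAAAACC. The 39 bases after 3 members are shown as examples, with the heptamer and nonamer positions in capitals and the spacer in lower case. At these fixed positions they range from a full to a poor match.
Trav16d-dv11: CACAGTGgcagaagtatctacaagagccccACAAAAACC
Trbv16: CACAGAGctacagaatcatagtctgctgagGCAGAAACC
Trbv31: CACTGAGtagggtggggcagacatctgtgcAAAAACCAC
The first 3 letters were CAC after 106 of 108 Trav and 21 of 22 Trbv segments that are not pseudogenes, after 15 of 20 Trav and 10 of 13 Trbv pseudogenes, and after 1.05% of 5243 other genes on chromosomes 6 and 14. The complete heptamer stood after 84.3% of Trav and 36.4% of Trbv segments that are not pseudogenes and after 0.153% of the other genes. CAC together with a nonamer matching in at least 6 of 9 letters stood after 91 of 108 and 14 of 22, after 8 of 20 and 6 of 13 pseudogenes, and after 0.0572% of the other genes. A match is a description of letters and does not show that a segment recombines. Positions were fixed by the annotated end, so a shifted nonamer counts as no match. In Trbv31, letters close to the nonamer begin before the capitals.

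For 8 segments the 240 bases with the most CpGs listed in all 4 libraries are printed on the segment's strand, with each of those CpGs in capitals. Trbv16 (chr6:41152061-41152300), Trbv13-2 (chr6:41121619-41121858) and Trbv5 (chr6:41062472-41062711) had the largest called Trbv differences. Trbv31 (chr6:41557725-41557964, minus strand) lies beyond the J segments in inverted orientation, and Trbv1 (chr6:40891572-40891811) lies farthest away. Trav19 (chr14:53845692-53845931) had the lowest depth in T cells among the tested segments, Trav16d-dv11 (chr14:53047568-53047807) a large methylation difference, and Trav9n-1 (chr14:53102007-53102246), a pseudogene, the opposite direction.
Trbv16: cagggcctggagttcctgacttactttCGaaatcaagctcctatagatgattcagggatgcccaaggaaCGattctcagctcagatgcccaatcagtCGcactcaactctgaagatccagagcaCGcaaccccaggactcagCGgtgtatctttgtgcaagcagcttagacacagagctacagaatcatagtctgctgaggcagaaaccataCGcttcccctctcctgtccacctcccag
Trbv13-2: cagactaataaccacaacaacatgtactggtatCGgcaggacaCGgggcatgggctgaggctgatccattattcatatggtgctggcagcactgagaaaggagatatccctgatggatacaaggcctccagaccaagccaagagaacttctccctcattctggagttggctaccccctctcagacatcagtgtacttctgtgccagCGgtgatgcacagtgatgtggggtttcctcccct
Trbv5: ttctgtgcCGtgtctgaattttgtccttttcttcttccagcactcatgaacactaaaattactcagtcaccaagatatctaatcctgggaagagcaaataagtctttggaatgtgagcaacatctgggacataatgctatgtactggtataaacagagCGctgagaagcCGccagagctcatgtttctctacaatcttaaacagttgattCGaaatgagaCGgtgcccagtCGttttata
Trbv31: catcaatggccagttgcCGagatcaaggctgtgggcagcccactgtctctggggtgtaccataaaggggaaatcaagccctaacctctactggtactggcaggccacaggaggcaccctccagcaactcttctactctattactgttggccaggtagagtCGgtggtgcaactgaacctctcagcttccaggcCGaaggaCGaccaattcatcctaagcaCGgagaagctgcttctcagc
Trbv1: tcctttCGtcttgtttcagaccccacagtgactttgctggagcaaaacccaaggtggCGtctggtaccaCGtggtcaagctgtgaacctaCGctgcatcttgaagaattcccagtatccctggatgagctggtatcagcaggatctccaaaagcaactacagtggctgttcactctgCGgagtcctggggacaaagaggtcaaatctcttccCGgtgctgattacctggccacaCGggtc
Trav19: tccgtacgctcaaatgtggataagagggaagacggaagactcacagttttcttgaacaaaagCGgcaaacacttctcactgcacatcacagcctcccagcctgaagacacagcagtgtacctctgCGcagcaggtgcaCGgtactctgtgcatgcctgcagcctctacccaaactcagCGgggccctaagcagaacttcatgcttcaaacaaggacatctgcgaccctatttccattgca
Trav16d-dv11: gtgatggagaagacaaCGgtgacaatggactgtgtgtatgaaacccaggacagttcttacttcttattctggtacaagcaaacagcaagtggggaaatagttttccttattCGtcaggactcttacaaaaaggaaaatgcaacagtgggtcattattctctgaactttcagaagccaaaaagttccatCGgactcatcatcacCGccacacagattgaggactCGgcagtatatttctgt
Trav9n-1: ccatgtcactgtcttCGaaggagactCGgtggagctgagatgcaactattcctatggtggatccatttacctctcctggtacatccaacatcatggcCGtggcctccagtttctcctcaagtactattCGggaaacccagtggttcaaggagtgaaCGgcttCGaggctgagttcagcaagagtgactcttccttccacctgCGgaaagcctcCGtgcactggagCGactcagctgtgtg

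The Trbv16 stretch, with 6 CpGs, was methylated at 57.4% in the B cells of females (162 reads), 0% in their T cells (75 reads), 55.2% in the B cells of males (96 reads) and 3.19% in their T cells (94 reads). The Trbv31 stretch, with 5 CpGs, gave 55.6%, 0%, 61.7% and 0% in the same order, on 94 to 117 reads. Both B libraries were above both T libraries at each of these 11 CpGs of the 2 segments. In Trbv5 the 6 CpGs were not alike in T cells: the second stood at 66.7% in females and 57.1% in males, and the last at 0% and 9.52%. The Trbv13-2 stretch, with 3 CpGs, gave 65.1%, 6.06%, 68.3% and 4.76%. Trbv1 was low in every library, at 16.8%, 6.62%, 11.8% and 6.96% over 7 CpGs. The Trav19 stretch was at 92.5%, 35%, 97.1% and 17.4%, but only 4 of its 8 CpGs were listed in all libraries, with 20 and 23 reads in the T libraries. Trav16d-dv11 was at 80%, 4.29%, 69.1% and 1.61% over 5 CpGs. Trav9n-1 ran the other way, at 27.5%, 71.5%, 30.7% and 69.4% over 9 CpGs. Its first 2 CpGs were at 100% in every library, and both T libraries were above both B libraries at the other 7.

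**Figure D1:**
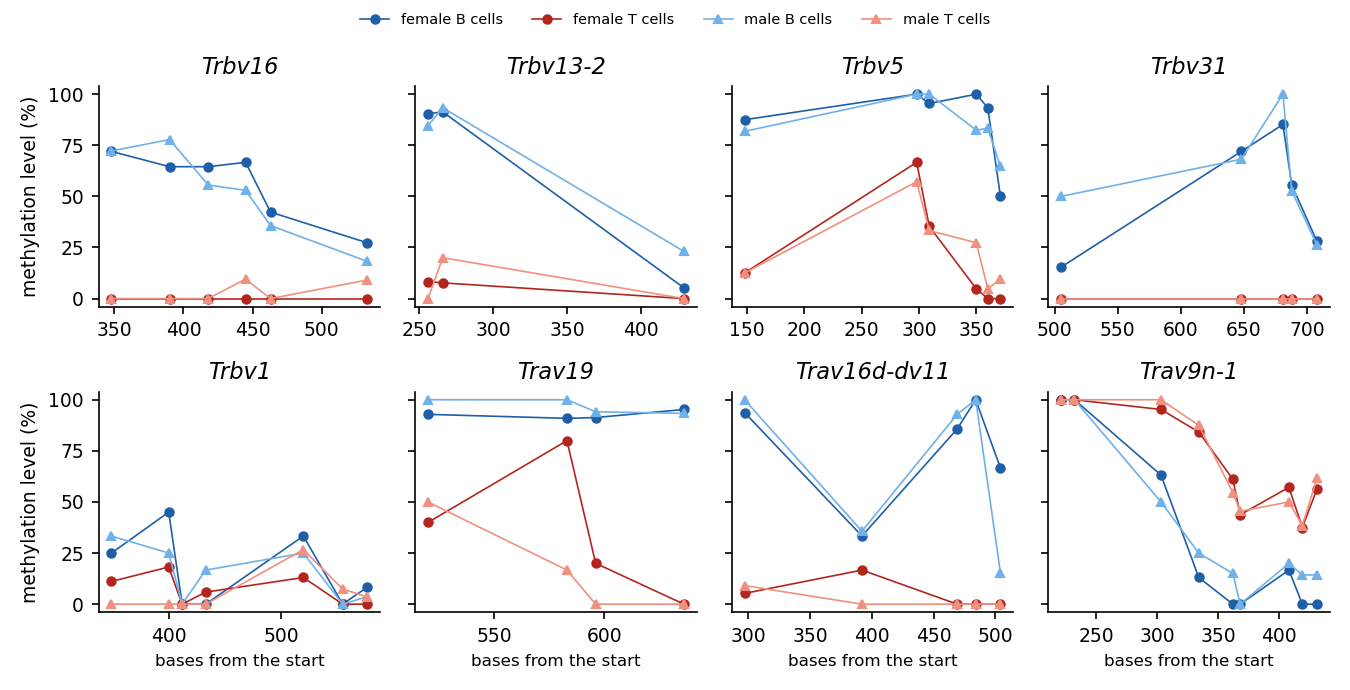
Methylation level in percent (vertical axis) of each CpG listed in all 4 libraries within the printed stretch of 8 segments, by distance from the segment start in bases (horizontal axis), with 1 line per library. Both T libraries lie at 0% over all 5 CpGs of Trbv31, and in Trav9n-1 they lie above both B libraries at 7 of 9 CpGs.

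The 4 libraries held 280919817 to 354634149 reads at CpGs, with a median of 14 to 17 reads per listed autosomal CpG. A CpG with fewer than 5 reads is not in a library's file. At promoters, 7 T cell markers (Cd3d, Cd3e, Cd3g, Cd247, Cd4, Cd5 and Lck) were at 0.566% to 9.87% in female T cells and 69.5% to 94.1% in female B cells, and 5 B cell markers (Cd79a, Cd79b, Ms4a1, Cd22 and Blk) at 40.7% to 95.2% and 8.36% to 28.7%. Markers of other spleen cells (Cd8a, Cd8b1, Itgam, Csf1r and Ncr1) were at 72.4% to 90.6% in female B cells and 29.2% to 91.5% in female T cells. Of these 5, Cd8a, Cd8b1 and Itgam were lower in both T libraries than in both B libraries, Cd8b1 at 29.2% and 29.7% and Cd8a at 56.1% and 57.2% in T cells, although T cells were sorted as CD4+ after CD8a depletion, and their part in the results was not tested.

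V segments were more methylated in B cells than in T cells as a group. A segment was called at a Benjamini-Hochberg adjusted p under 0.05 over all 51600 gene windows (edgeR quasi-likelihood test) together with a difference of means that reached 20 percentage points. Of the 100 tested members, 53 were called higher in B cells, 38 of 71 Trav and 15 of 29 Trbv, whereas 1.56% of all gene windows were. Trav9n-1 alone among the 100 was called higher in T cells, and 0.357% of all windows were. Of these 54 calls, limma on logit levels made 36. B cells exceeded T cells by a median of 22.1 points for Trav and 20.1 points for Trbv, and 1.19 points over all windows. Both B libraries stood above both T libraries at 58 of 71 Trav and 25 of 29 Trbv segments, and at 42.6% of all windows. Bulk DNA gives 1 level per library, so a lower level in every T cell and a full loss in some T cells cannot be told apart.

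Summed over the tested Trav segments, 71.9% of reads were methylated in the B cells of females (95% Wilson interval 71.1% to 72.8%), 52.4% in their T cells (51.3% to 53.5%), 71.4% in the B cells of males (70.4% to 72.3%) and 52.0% in their T cells (50.9% to 53.1%). The Trbv segments gave 73.3% (72.0% to 74.6%), 41.4% (39.6% to 43.2%), 71.4% (69.9% to 72.9%) and 43.4% (41.6% to 45.2%) in the same order. B exceeded T by 19.4 points for Trav and by 30 points for Trbv, more than the sexes differed within a cell type. With 2 libraries against 2, the exact permutation test cannot go under a two-sided p of 0.333, which both loci reached.

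Segments that are not pseudogenes carried most of the calls. Among them, 50 of 82 tested were called higher in B cells, and among pseudogenes 3 of 18 (1 Trav and 2 Trbv). Over all windows 1.56% were called higher in B cells, so both shares lay above that of all windows. Trbv segments that are not pseudogenes were at 68.9%, 33.1%, 67.1% and 34.2% of methylated reads (same order), with both B libraries above both T libraries at 21 of 21. Trbv pseudogenes were at 88.4%, 75.3%, 88.8% and 76.7%, with both B libraries above both T libraries at 4 of 8, a share near the 42.6% of all windows. The 10 Trav pseudogenes gave 66.4%, 63.0%, 67.6% and 63.7%, against 72.9%, 50.7%, 72.0% and 50.3% in the 61 other Trav segments. Over these 10 pseudogenes, which include Trav9n-1 with its opposite direction, B minus T had a median of 11.9 points, and both B libraries stood above both T libraries at 7. Whether the difference itself depends on pseudogene status was not tested.

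**Figure D2:**
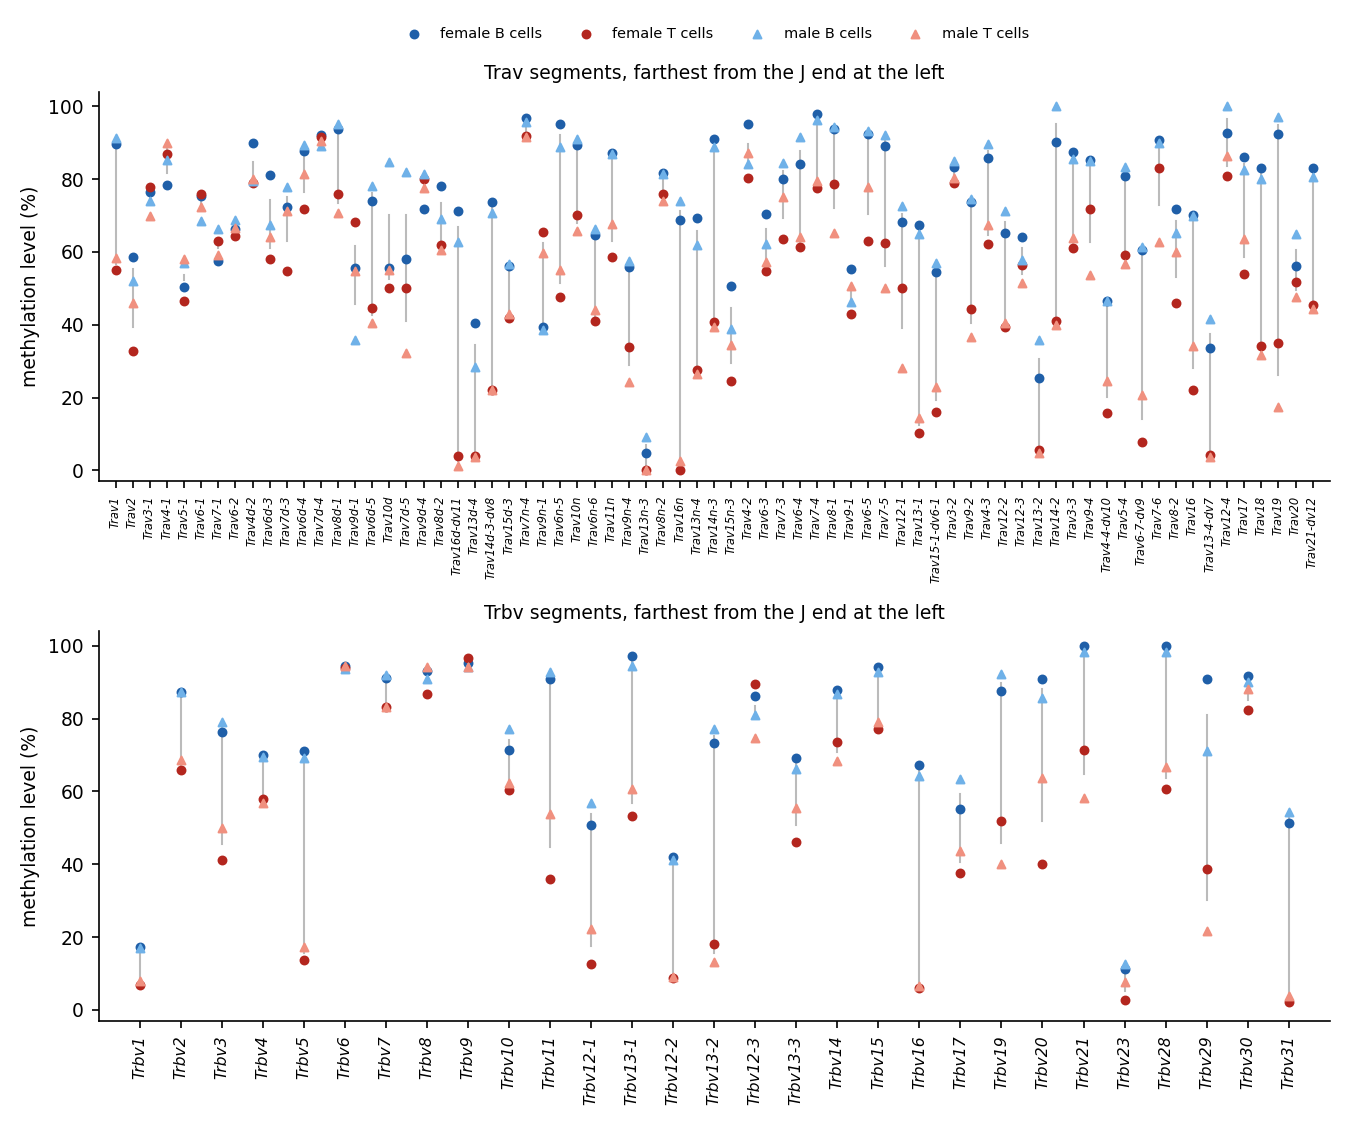
Methylation level in percent (vertical axis) of the 71 Trav segments (top) and 29 Trbv segments (bottom) that were tested, ordered by distance from the J end (horizontal axis), with 1 point per library and a grey line between the B and T means. Most segments have both blue B points above both red T points, and Trav9n-1 has the reverse.

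The largest called Trbv difference was at Trbv13-2, at 73.4% in the B cells of females, 18.0% in their T cells, 77.2% in the B cells of males and 13.2% in their T cells (59.7 points, adjusted p = 5.31e-15). Trbv16 was at 67.1%, 5.94%, 64.2% and 6.67% (59.3 points, adjusted p = 5.73e-40). Trbv5 was at 71.0%, 13.7%, 69.1% and 17.3% (54.6 points, adjusted p = 4.61e-40). In all 3 segments the groups did not overlap and the T level was under 20%. The 3 were picked for their large differences, so the lack of overlap followed from the choice. Both B libraries stood above both T libraries at 42.6% of all windows. Trbv29 was at 90.9%, 38.7%, 71.2% and 21.7% (50.8 points, adjusted p = 1.58e-07), with 23 to 52 reads per library. Trbv31, the inverted segment past the J segments (position -25.3 kb from the J end), was at 51.3%, 2.21%, 54.4% and 3.7% (49.9 points, adjusted p = 4.83e-44). Its T levels were the lowest of the tested Trbv segments.

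Trbv1, 641 kb away, was at 17.2%, 6.89%, 16.9% and 7.94%, a difference of 9.65 points that had an adjusted p of 4.97e-05 and stayed under the minimum difference. Trbv2, 485 kb away, was at 87.4%, 65.9%, 87.3% and 68.6% (20.1 points, adjusted p = 8.50e-06), just over that minimum, and lost its call with 1000 bases on either side (19.6 points), with unweighted CpG levels (16.6 points), without the female T library (18.7 points) and without the female B library (19.99 points). Trbv3 was at 76.4%, 41.3%, 79.1% and 50% (32.1 points, adjusted p = 1.10e-04, 16.8 points and no call with 1000 bases on either side), and its window overlaps that of Trbv2. The pseudogenes Trbv6 and Trbv9 stood above 93% in every library, with B minus T of -0.22 and -0.88 points. Trbv30, the last Trbv segment before the J end, was at 91.8%, 82.3%, 90.2% and 88.1% and did not pass the test (adjusted p = 0.262).

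Among Trav segments the largest called difference was at Trav16n, at 68.7%, 0%, 74.1% and 2.70% (70 points, adjusted p = 1.34e-24), with 37 to 67 reads per library. A near copy of Trav16n elsewhere in the reference, at 98.3% identity, means that reads of both could have been mixed. Trav19, with no such copy, was at 92.5%, 35%, 97.1% and 17.4% (68.6 points, adjusted p = 9.81e-16), on the same 4 CpGs as its printed stretch. Trav16d-dv11 was at 71.2%, 3.95%, 62.8% and 1.35% (64.3 points, adjusted p = 4.21e-27). Trav14-2 was at 90.2%, 40.9%, 100% and 40% (54.6 points, adjusted p = 1.84e-08), on 20 and 22 reads in T cells and also with near copies. Groups did not overlap in any of the 4, which were picked for their large differences, so this followed from the choice. The calls of Trav19 and Trav14-2 were lost when limma was fitted to logit levels in place of edgeR.

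Trav9n-1 was the exception in direction. Its window was at 39.4% in the B cells of females (95% Wilson interval 34.5% to 44.5%), 65.5% in their T cells (59.5% to 71.0%), 38.5% in the B cells of males (32.6% to 44.7%) and 59.6% in their T cells (52.8% to 66.1%). B minus T was -23.6 points (adjusted p = 2.22e-09), and both T libraries were above both B libraries. With CpG levels averaged without weights the difference was -17.1 points and was not called. Trav9d-1, of the same family, had -15.9 points (adjusted p = 0.00110), under the minimum difference, at 55.6%, 68.3%, 35.8% and 54.8%, and has a near copy.

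Families differed in where the T cells stood. The 3 Trav16 segments were all called, with T means of 1.35% to 28.2% and B means of 67.0% to 71.4%. The 3 tested of 9 Trav14 segments were also all called, with a mean difference of 51.5 points. Of 6 tested Trav13 segments 5 were called, and their T means ran from 0% to 27.0%, the B mean being 40.2% over the family. The other large families were mixed, with 6 of 11 Trav6, 2 of 9 Trav7 and, beside Trav9n-1, 3 of 7 Trav9 segments called higher in B cells. Of the 3 Trbv12 segments 2 were called, at T means of 8.83% to 82.0%, and of the 3 Trbv13 segments 2, at 15.6% to 56.9%. Over all windows 1.56% were called higher in B cells. Families are described by these counts only, and members of a family share sequence.

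In segments that are not pseudogenes, levels dipped just before the segment start. In such Trav segments, the 100 bases from -200 to -100 were at 34.5% in the B cells of females, 7.84% in their T cells, 33.1% in the B cells of males and 12.2% in their T cells, on 19 CpGs. From 200 to 300 bases inside the segment the levels were 90.6%, 75.7%, 90.1% and 69.0%, and 900 to 1000 bases before the start they were 94.1%, 86.9%, 92.2% and 86.3%. Trbv segments that are not pseudogenes had 39.7%, 4.08%, 30.5% and 0% from -200 to -100, on 4 CpGs, and 61.2%, 16.8%, 55.3% and 18.9% in the last 100 bases before the start. In these Trbv segments the bases from -500 to -400 were low as well, at 34.8%, 26.5%, 40.4% and 29.1%. T cells stood below B cells both at the start and inside these segments. Pseudogenes had another profile, on few CpGs. Trbv pseudogenes were at 96.7%, 96.4%, 96.2% and 83.3% from -200 to -100 (2 CpGs) and at 85.5%, 79.5%, 87.2% and 82.4% in the last 100 bases (3 CpGs). Trav pseudogenes were at 8.79%, 1.49%, 11.3% and 0% from -400 to -300 (8 CpGs) and at 100%, 91.7%, 100% and 95% in the last 100 bases (2 CpGs). In segments that are not pseudogenes, over gene bodies the difference was 22.4 points for Trav and 37.1 points for Trbv, and over the 500 bases upstream 15.0 and 27.3 points. In pseudogenes the body differed by 0.458 points in Trav and 7.80 points in Trbv, the 500 bases upstream by 11.8 and 11 points and those downstream by 2.97 and 17.4 points. The Trav body value pools Trav9n-1, whose 9 printed CpGs lie in its body and ran the other way, at 27.5%, 71.5%, 30.7% and 69.4%. The body value without Trav9n-1 was not tested.

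**Figure D3:**
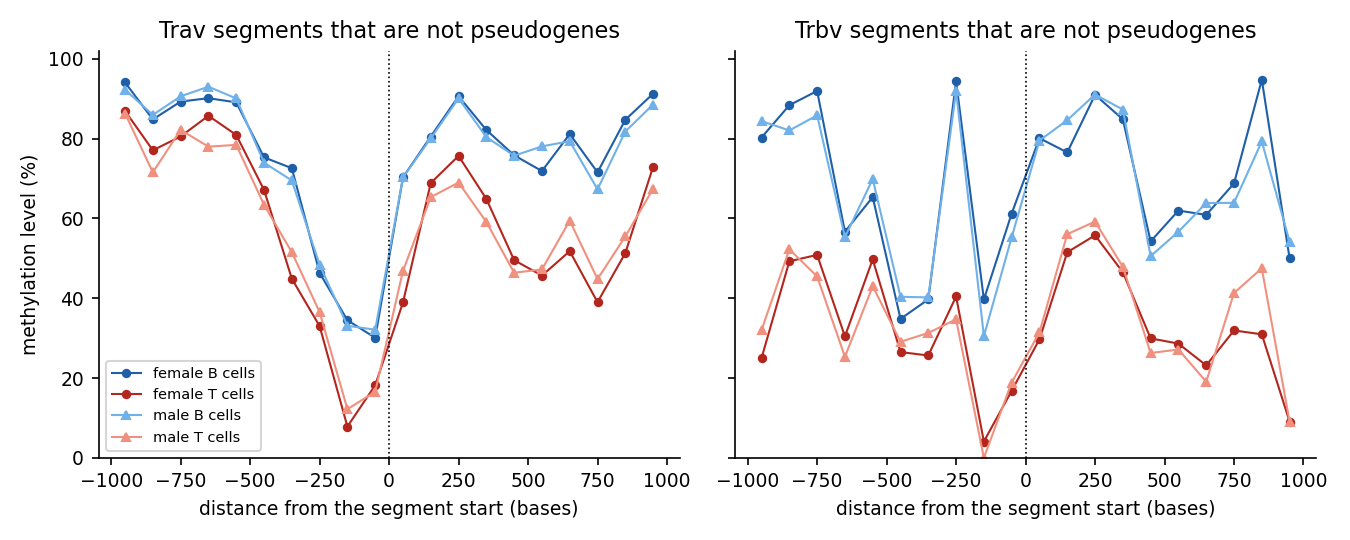
Methylation level in percent (vertical axis) in steps of 100 bases around the segment start (horizontal axis, bases), over the tested Trav (left) and Trbv (right) segments that are not pseudogenes, with 1 line per library. All lines dip within 200 bases before the start, where T cells reach 7.84% in Trav females and 0% in Trbv males.

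In segments that are not pseudogenes, T cells were below B cells around most of the 3′ end too. Over the last 50 bases Trav segments that are not pseudogenes were at 76.1%, 43.5%, 74.4% and 40.5%, and over the 50 bases past the end, where the signal lies, at 71.7%, 35.2%, 73.8% and 39% (16 CpGs in 13 segments). In the 50 bases from 100 to 50 before the end, Trav segments that are not pseudogenes were at 60.6%, 26.1%, 60.8% and 27.3% (43 CpGs in 30 segments). Trbv segments that are not pseudogenes were at 43.8%, 20%, 45.5% and 18.6% over the last 50 bases (12 CpGs in 9 segments) and at 95.5%, 51.0%, 93.2% and 52.5% from 200 to 150 bases before the end. The 50 bases just past the end of these Trbv segments, on 5 CpGs in 5 segments, gave 32.4%, 34.1%, 32.5% and 23.9%, and there the groups overlapped. Pooled over Trav pseudogenes, T cells were above B cells of the same sex at 61.8%, 72.2%, 65.6% and 75.3% from 100 to 50 bases before the end (6 CpGs). The last 50 bases gave 42.9%, 53.7%, 56.3% and 60.9% (7 CpGs in 5 segments). Both steps hold CpGs of Trav9n-1, as at 0%, 43.8%, 0% and 45.5% (chr14:53102169) and 0%, 37.5%, 14.3% and 38.5% (chr14:53102220). The direction without Trav9n-1 was not tested. From 150 to 100 bases before the end B cells were above T cells, at 74.6%, 71.4%, 76.8% and 74.1% (8 CpGs). Of 52 Trav segments with CAC and a matching nonamer that are not pseudogenes, 33 were called higher in B cells, and of 9 without, 4. For Trbv these counts were 7 of 13 and 6 of 8, and over all windows 1.56% were called higher in B cells. Segments such as Trbv31 and Trbv21, with nonamer-like letters shifted from the fixed position, count here as without.

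Promoters of several V-beta segments are known to hold a cyclic-AMP-response-like octamer. TGACATCA, on either strand of the 300 bases before the start, stood in 8 of 22 Trbv segments that are not pseudogenes (36.4%) and in 1 of 13 Trbv pseudogenes. It stood in 2 of 108 Trav segments that are not pseudogenes, in 1 of 20 Trav pseudogenes and in 4.46% of other genes on the same chromosomes. The segments listed next are the 8 Trbv segments that are not pseudogenes. The 8 were Trbv12-1, Trbv12-2, Trbv13-1, Trbv13-2, Trbv13-3, Trbv15, Trbv23 and Trbv29. Apart from Trbv15, Trbv23 and Trbv29, they belong to the Trbv12 and Trbv13 families, whose members share sequence. Of the 8, 5 were called higher in B cells, and of the 13 tested Trbv segments without it that are not pseudogenes, 8. Over all windows 1.56% were. The median T level was 23.8% with the octamer and 45.9% without, and the median B minus T difference 34.5 and 32.1 points.

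Read depth showed a second difference between the cell types. Relative depth is the mean read number per CpG in a segment divided by the median over autosomal gene windows of the same library, so that 1 is the usual depth. In T cells 34 of 100 members had lower depth than in B cells (adjusted p under 0.05 and a log2 ratio of at least 0.5, edgeR), 24 Trav and 10 Trbv, and 0.223% of all windows did. None of the 100 was called higher in T cells, and 0.171% of all windows were. The median ratio of T over B was 0.679 for Trav (log2 -0.56) and 0.644 for Trbv (log2 -0.63), and 1.00 over all windows. Both T libraries were below both B libraries at 50 of 71 Trav and 23 of 29 Trbv segments, and at 21% of all windows. Fewer copies in every cell and a loss in some cells cannot be told apart in bulk DNA.

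The number of depth calls depended on the test more than the ratios did. DESeq2 without independent filtering called 2 members, Trav9-4 (log2 -1.44, adjusted p = 0.0209) and Trav8-2 (log2 -1.46, adjusted p = 0.0404), and 38 windows in all. Leaving out any 1 library left a cell type with a single library, and no window was then called. The median absolute log2 ratio of members was 0.610 to 0.641 in these fits and 0.580 with all 4 libraries.

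Among tested segments upstream of the J end, the lowest depth in T cells stood at the proximal end. Trav19, 309 kb from Traj61, had a relative depth of 1.12 in the B cells of females, 0.278 in their T cells, 1.22 in the B cells of males and 0.326 in their T cells, a ratio of 0.260 (adjusted p = 0.00109). The pseudogene Trav20, 291 kb away, was at 1.25, 0.345, 1.35 and 0.477 (ratio 0.315, adjusted p = 0.00125). Trav17, 348 kb away, was at 1.33, 0.361, 1.45 and 0.520 (ratio 0.315, adjusted p = 7.86e-04). In these segments, picked for their large depth differences, every T value was less than every B value by more than the sexes differed. Both T libraries were below both B libraries at 21% of all windows. Trav21-dv12, the nearest tested segment at 278 kb, was at 1.13, 0.367, 1.23 and 0.409 (ratio 0.330, adjusted p = 0.00188).

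The Trbv segments near the J end were low as well. Trbv20, 344 kb from Trbd1, was at 1.22, 0.417, 1.29 and 0.416 (ratio 0.333, adjusted p = 0.00106). Trbv30, 251 kb away, was at 1.36, 0.492, 1.32 and 0.478 (ratio 0.364, adjusted p = 0.00108). Trbv17, 370 kb away, was at 1.06, 0.556, 1.71 and 0.454 (ratio 0.374, adjusted p = 0.0116). The pseudogene Trbv28, 266 kb away, was at 1.15, 0.459, 1.06 and 0.383 (ratio 0.383, adjusted p = 0.00876). Trbv29, 261 kb away, was at 0.616, 0.431, 0.907 and 0.326 (ratio 0.508) and did not pass the test (adjusted p = 0.108). At the far end Trbv2 was at 1.00, 0.938, 0.890 and 0.858, and Trbv1 at 0.889, 1.24, 1.32 and 1.19, where the groups overlapped. Trbv31, past the J segments and inverted, was at 1.08, 1.01, 1.27 and 0.919, a ratio of 0.825 that did not pass the test (adjusted p = 0.468). Trav1, 1726 kb from Traj61, was at 0.834, 0.815, 0.946 and 0.908, and Trav3-1, 1574 kb away, at 1.08, 1.04, 0.928 and 0.930.

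Grouped by distance, the median T over B ratio of Trav segments was 0.365 within 500 kb of the J end (14 of 15 called), 0.632 from 500 to 1000 kb (10 of 26), 0.720 from 1000 to 1250 kb (0 of 12), 0.965 from 1250 to 1500 kb (0 of 12) and 0.979 beyond (0 of 6). Trbv segments had 0.383 at 200 to 300 kb (2 of 3), 0.402 at 300 to 350 kb (3 of 3), 0.538 at 350 to 400 kb (3 of 5), 0.657 at 400 to 450 kb (2 of 10) and 0.851 at 450 to 500 kb (0 of 6). In both loci the ratio thus went up with distance. As a description across segments, which share libraries and depth, Spearman's rho of ratio with distance was 0.90 for Trav (n = 71, 0.86 in females and 0.79 in males) and 0.88 for Trbv without Trbv31 (n = 28, 0.70 and 0.81). Leaving out the 16 Trav segments with a near copy gave 0.92. The female over male ratio within B cells, as a comparison with no difference in cell type, had rho of -0.10 and 0.02, and within T cells 0.26 and -0.19.

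**Figure D4:**
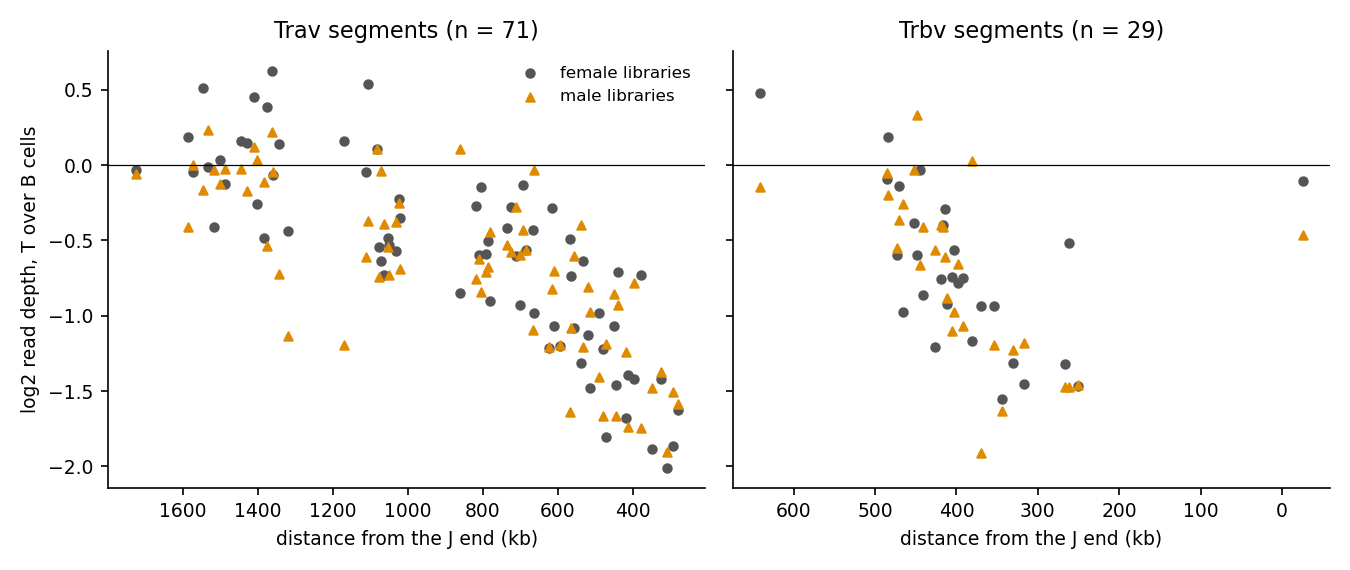
Log2 ratio of read depth, T over B cells (vertical axis), of each tested segment by distance from the J end in kb (horizontal axis, the J end at the right), with 1 point for the female and 1 for the male pair of libraries. The points scatter around 0 at the far end of Trav and reach -2.01 in females and -1.90 in males at Trav19, Trbv29 stands at -0.52 in females and -1.47 in males, and Trbv31, at -25.3 kb, at -0.10 and -0.47.

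The minimum of 5 reads limits what the files show at the proximal end. A CpG at 5 reads has a relative depth of 0.278 in female and 0.284 in male T cells, and lower values cannot appear, so the ratios above are too high where CpGs are missing. Of the CpGs listed anywhere within Trav segments under 500 kb, 99.1% were listed in female B cells and 99.4% in male B cells, but 52.5% and 52.2% in the T libraries. Beyond 1500 kb 98.6% to 100% were listed in every library. Trav23, the most proximal segment at 177 kb, had 24 of 24 CpGs listed in both B libraries, 0 in female and 9 in male T cells, and could not be tested. In Trav19, counting unlisted CpGs as 0 or as 4 reads gave a relative depth of 0.0850 to 0.242 in female and 0.160 to 0.280 in male T cells.

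Of the 60 segments with fewer than 3 shared CpGs, 11 had at least 3 in both B libraries and not in both T libraries (7 Trav and 4 Trbv), and 2 had the reverse. Another 40, all Trav, were poorly listed in both cell types, 4 had fewer than 3 CpGs in the reference, and 3 had 3 in each library that were not shared. The other 3 untested members had fewer than 20 reads in a library. Near copies with at least 98% identity were found for 66 members, all Trav, and 16 of these were tested. Over the 163 members 1928 CpGs stand in the reference, of which 1326 and 1279 were listed in female and male B cells and 1051 and 1058 in female and male T cells.

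Depth was also followed in 10-kb steps through both loci, with unlisted CpGs counted as 0 for the lower and as 4 reads for the upper value. In the 300 kb before the first Trav segment, female T cells were at 0.899 to 0.905 and female B cells at 0.902 to 0.905. Between 500 and 1000 kb from the J end they were at 0.456 to 0.50 and 0.747 to 0.766, and from 500 kb to the last Trav segment at 0.212 to 0.322 and 0.835 to 0.841. In the stretch between the last Trav segment and Traj61, which holds the delta D, J and C segments, T cells were lowest, at 0.0524 to 0.242 in females and 0.0568 to 0.248 in males, with 14.8% and 15.6% of CpGs listed. B cells there were at 0.995 to 0.999 and 0.992 to 1.00. Inside Traj the T depth went up again, from 0.458 to 0.489 in the first 20 kb to 0.858 to 0.863 from 40 to 60 kb in females. Downstream of the locus it was 0.948 to 0.954, with female B cells at 0.933 to 0.938.

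Depth in the beta locus was read in the same way. From 250 to 350 kb female T cells were at 0.175 to 0.295 and female B cells at 0.698 to 0.708. Between Trbv30 and Trbd1 the values were 0.192 to 0.306 and 0.834 to 0.839, and in males 0.193 to 0.310 and 0.857 to 0.867. Between Trbv1 and Trbv2 female T cells were at 0.658 to 0.676 and female B cells at 0.725 to 0.741. In the 300 kb upstream of the locus the same libraries were at 0.783 to 0.794 and 0.857 to 0.862. In the 300 kb downstream of it they were at 0.834 to 0.843 and 0.875 to 0.879. From Trbd1 to Trbc2 female T cells were at 0.546 to 0.601 and female B cells at 1.00.

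**Figure D5:**
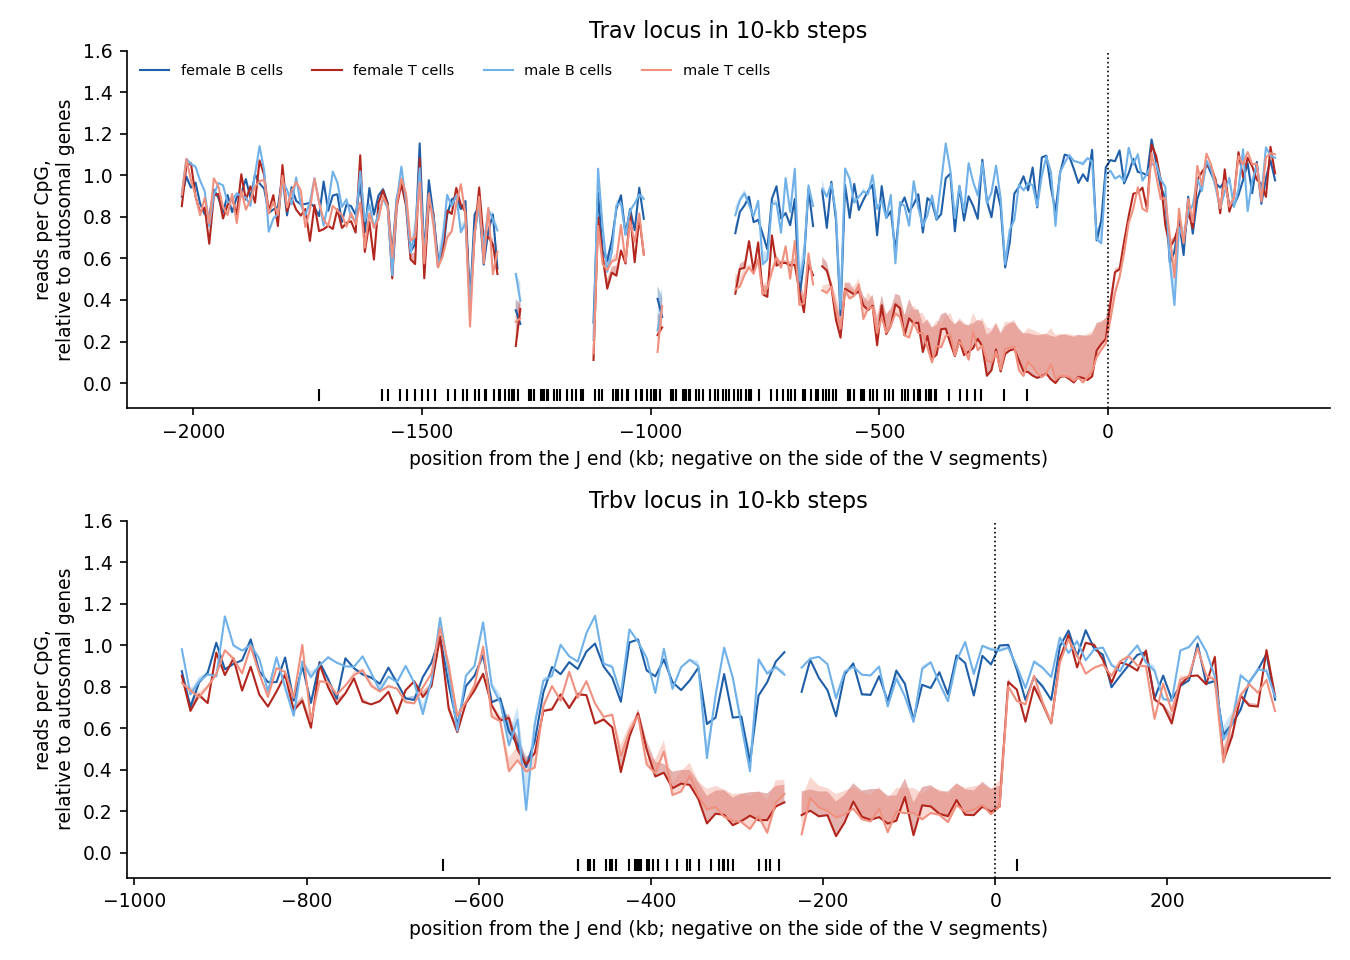
Reads per CpG relative to autosomal gene windows (vertical axis) in steps of 10 kb through the Trav locus (top) and the Trbv locus (bottom), by position from the J end in kb (horizontal axis, dotted line at 0), with 1 line per library for unlisted CpGs as 0 reads, shading up to 4 reads and tick marks at the V segments. Steps with too few CpGs, with a minimum of 20, are left blank. Both T lines are lowest between the last Trav segment and the J end, where female T cells were at 0.0524 to 0.242 and female B cells at 0.995 to 0.999.

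Lower depth and lower methylation did not always go together. Both were called at 24 members, and 10 had a depth call with no methylation call, 5 of them pseudogenes. Trbv30 and Trav20 had depth ratios of 0.364 and 0.315 with methylation differences of 5.76 and 11 points that did not pass the test. Leaving out 1 library gave 2.82 points (without female T) to 8.70 points (without male T) for Trbv30 and 6.63 (without male B) to 15.3 points (without female B) for Trav20, with no call. Trav16d-dv11 and Trbv5 had methylation differences of 64.3 and 54.6 points at depth ratios of 1.04 and 0.842, neither called. The Trav16d-dv11 ratio joins a log2 of 0.54 in females and -0.37 in males. Its best match elsewhere in the reference is 97.8% identical, just under the limit for a near copy. Across segments rho of the methylation difference with distance was -0.45 for Trav and -0.23 for Trbv, weaker than that of depth. By distance group the median Trav difference was 25.5, 24.0, 22.5, 12.1 and 1.29 points from the proximal to the far end. Trav1, the farthest, was nevertheless called, at 89.6%, 54.9%, 91.4% and 58.3% (33.8 points, adjusted p = 1.42e-26), while Trav2 was at 58.7%, 32.8%, 51.9% and 46.1% (15.9 points, or 9.19 without the female T library and 22.5 and a call without the male T library) and Trav3-1 at 76.4%, 77.9%, 74.0% and 70%.

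The other segments of the same loci were read in the same way. Of 57 tested Traj segments 55 were called higher in B cells, with a median difference of 66.3 points, against 1.56% of all windows, and 18 had lower depth in T cells, against 0.223%. Traj61, the first, was at 94.5% in B cells and 64.4% in T cells with a depth ratio of 0.397, and Traj1, the last, at 90.8% and 5.34% with a ratio of 0.941. All 13 tested Trbj windows were called, with T means of 0% to 1.85%, and 8 had lower depth. The depth calls depend on the fit, since over all other segments of both loci 28 became 4 with DESeq2 without independent filtering (Trdc, Trdv5, Traj39 and Traj41) and 0 without any 1 library. Neighbouring J windows overlap, and those of Trbj1-2 and Trbj1-3 held the same CpGs, so they are not separate measurements. The constant segments Trac, Trbc1 and Trbc2 were at 9.0%, 0% and 0.724% in T cells and 77.9%, 97.4% and 95.6% in B cells. Trdc, the constant segment of the delta chain, which lies between Trav and Traj, had a depth ratio of 0.311 (adjusted p = 3.37e-05) and 92.9% against 73.5%, under the minimum difference.

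Genes without a T cell receptor symbol were few inside the V clusters. C920008G01Rik and B230359F08Rik, in the Trav span, are annotated as V segments that the symbol rule left out, and neither was tested. B230359F08Rik was at 58.5%, 31.6%, 70.8% and 23.5% on 3 CpGs, with 17 to 53 reads per library. Of 16 tested inside the Trav span, which count Gm6740 under overlapping entries, 0 had a methylation call. Over all windows 1.56% were called higher in B cells and 0.357% in T cells, so few calls would stand among 16 at those shares. B minus T ran from -2.92 points at Gm43550 to 16.7 points at Gm30214, which overlaps Trav13d-3. The Gm30214 difference had an adjusted p of 1.21e-08 (edgeR) and stayed under the minimum difference. Lower depth in T cells was called at 4 of the 16, against 0.223% of all windows. Of these 4, the antisense genes Gm43650 and Gm43647 overlap V segments themselves (Trav13n-3 in the first, Trav22, Trdv2-1 and Trdv2-2 in the second), while Gm43551 and Gm43550 overlap none. With edgeR, 2 of 12 inside the Trbv span were called higher in B cells (1.56% of all windows). These were 5830405F06Rik, whose body contains Trbv4 and Trbv5, and Gm2719. Gm37878 was called higher in T cells (-20.4 points, with 0.357% of all windows called in that direction). Gm2719 also had lower depth in T cells (ratio 0.355). V segments of the B cell receptor were read for comparison. Among 136 tested Ighv segments 32 had higher depth in T cells, against 0.171% of all windows, and 0 lower, 11 were called with more methylation in the B libraries (1.56% of all windows) and 4 with more in the T libraries (0.357%). Among 127 Igkv segments 26 were called more methylated in T cells (0.357% of all windows), 0 in B cells and 1 had higher depth in T cells. The single tested gamma V segment was called, at 87.8% in B cells and 25.7% in T cells.

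Females and males were compared as the second factor. No member was called in methylation between the sexes with edgeR (0 of 100, 0.209% of all windows). At an unadjusted p under 0.05 edgeR had 7 members (10.4% of all windows). Limma called 0, with 15 at that level (6.85% of all windows). Leaving out 1 library leaves no room for a cell type term, so that sex stood alone in the model and the sexes then differed in their mix of B and T cells. Those fits called 12 members without the female B library (0.657% of all windows), 11 without female T (0.7%), 18 without male B (0.795%) and 12 without male T (0.711%), and sex and cell type cannot be told apart in them. In depth edgeR called 0 of 100 (3.47% of all windows) with 5 at an unadjusted p under 0.05, DESeq2 without independent filtering called 0 with 0 at that level, and with sex alone in the model edgeR called 8 without the female B library (3.28% of all windows) and 0 when the T library of females (3.12%) or either library of males (B 2.93%, T 2.98%) was left out. The B minus T methylation difference differed between the sexes at 0 of 100 members by edgeR (0.00194% of all windows) and 0 by limma. At an unadjusted p under 0.05 stood 7 members by edgeR (4.66% of all windows) and 15 by limma (3.90%). The depth ratio differed at 0 (0% of all windows), with 3 at an unadjusted p under 0.05 by edgeR (1.10% of all windows) and 0 by DESeq2 (0.331%). For depth between the sexes, 13.4% of all windows by edgeR and 5.71% by DESeq2 stood at that level. The shares of all windows in these sex comparisons include genes on X, whereas every member lies on an autosome. They are therefore not a like-for-like background for the members, above all in depth. Whether members differ from autosomal windows alone in sex calls was not tested. The largest sex difference of a member was 18.4 points, below the largest B minus T difference of 70 points.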

How the data were processed

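The authors deposited, for each of 4 groups, a list of CpGs with at least 5 reads, giving the methylation level as a fraction from 0 to 1 and the read count. The 2 samples in each group point to a single file, which was taken as 1 library (it carries the number of 1 sample and may hold that sample alone or join both), and p-values rest on these 4 libraries alone. In the methylation test the spread was estimated over all windows together. A segment's p-value there depends on its read counts and not on its own spread between libraries. The submitters' processing notes name Trim Galore, FastQC, Bismark 0.13.1 and mm10, with no role or order. Removal of duplicate reads is not given in the sources used here. Whole methylated reads were recovered from the deposited fractions, and 100% of levels were met within 1e-06 after rounding up to the 3 decimals deposited. 0 columns of per-sample values were left unused.

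Each gene body with 500 bases on either side (GENCODE M21) was given the sum of reads at those CpGs that every library lists, with at least 3 CpGs and 20 reads per library. Methylated and unmethylated reads were fitted with edgeR 4.0.16 in R 4.3.3 (glmQLFit and glmQLFTest, a term per library, methylation, cell type and sex, common dispersion 0.00286, infinite prior degrees of freedom), and total reads with TMM scaling, a trended dispersion, cell type and sex. A contrast crossing cell type and sex replaced the sex term to compare the B and T difference between the sexes. Benjamini-Hochberg adjustment ran over 51600 windows. A window was called at an adjusted p under 0.05 with at least 20 percentage points, or a log2 depth ratio of at least 0.5. Methylation differences are the average level of both B libraries minus the average of both T libraries. Depth in T cells is conditional on CpGs with at least 5 reads in every library.

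Alternatives were limma 3.58.1, DESeq2 1.42.0, other filters and flanks, and leaving out each library, with cell type or sex alone in the model. DESeq2 without independent filtering, and the alternatives for other segments of the loci, were added after the data were seen. Copies of each segment were found with blastn 2.17.0 (at least 98% identity over 90% of the length). Sequences came from the RefSeq GRCm38.p6 reference, and coordinates count from 1. Wilson 95% intervals cover counting error only, since molecules were not tagged and neighbouring CpGs can share a read. On data simulated from these windows, 99% of 100 windows changed by 30 points and 70% of 100 windows with a log2 depth change of 0.8 were called, and 0 and 9 unchanged windows were called in the methylation and depth simulations. The windows changed had intermediate levels in the methylation simulation and moderate read numbers in the depth simulation. Recovery at extreme levels or low read numbers, as in many proximal segments, was not tested.

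Members and lists were chosen with earlier results of these data known. Segments named were, in each locus, the 3 nearest to and the 3 farthest from the J end, the 4 largest called methylation differences in each direction, the 4 largest called depth differences, Trbv1 and Trbv31, and of the other segments Trac, Trbc1, Trbc2, Trdc and the first and last Traj. Others named were chosen after their values were seen.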

Additional observations from a re-analysis of the deposited data

How the results depend on the processing

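The 54 methylation calls between B and T cells became 24 of 50 testable members with at least 10 reads per CpG, where fewer members could be tested, and 52 to 56 without 1 library. Of the 54, 36 were also called by limma on logit levels, 51 with unweighted CpG levels, 45 with 1000 bases on either side and 38 of 43 testable with gene bodies alone. The 34 depth calls became 57 of 125 with unlisted CpGs as 4 reads, 16 of 73 over gene bodies alone, 2 with DESeq2 without independent filtering and 0 to 0 without 1 library, where 1 residual degree of freedom remains. DESeq2 with independent filtering gave no adjusted p for any member. Of the 34, 34 were kept with DESeq2 size factors in edgeR, 31 with unlisted CpGs as 0 reads and 29 with GC offsets. For the other segments of both loci, 72 methylation calls became 43 of 43 with at least 10 reads per CpG and 7 of 8 over gene bodies, and 28 depth calls became 48 and 51 of 90 with unlisted CpGs as 0 and 4 reads, 2 of 8 over gene bodies, 0 and 4 with DESeq2 with and without independent filtering, and 0 without 1 library. Sex calls in methylation went from 0 to 1 with no minimum difference and to 11 to 18 without 1 library, and in depth to between 0 and 8 without 1 library, in fits without a cell type term, where sex and cell type cannot be told apart. The cause of these changes was not tested. Uncalled log2 depth ratios near 0 changed sign. Over gene bodies alone Trav1 gave 0.094, Trav2 0.046 and Trbv2 0.0081. With unlisted CpGs as 0 reads Trav16d-dv11 gave -0.011 and Trbv3 -0.46, and Trbv3 gave -0.32 with them as 4 reads and -0.0029 with DESeq2 without independent filtering. Without 1 library, the lowest and highest ratios were -0.13 and 0.051 for Trav1, -0.36 and 0.54 for Trav16d-dv11, -0.33 and 0.10 for Trav2, -0.12 and 0.092 for Trav3-1, -0.12 and 0.45 for Trbv1, -0.15 and 0.019 for Trbv2 and -0.21 and 0.20 for Trbv3, and the methylation difference of Trav3-1 lay between -2.67 and 5.24 points. Calls of Trav14-2, Trav17, Trav19, Trbv20 and Trbv28 were lost with limma, and those of Trav17, Trav9n-1 and Trbv2 with unweighted levels. Unweighted levels moved the summed B minus T share from 19.4 to 21.9 points in Trav and from 30 to 26.1 points in Trbv. No paired analysis was possible because the groups share no replicate number in the labels. The depth of 14 to 17 reads per CpG and the 5-read minimum limit what can be seen close to the J end, where relative depths under 0.278 are not listed.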
